A study of Mus musculus with 3 samples.

Results

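Polycomb repressive complex 1 (PRC1) was followed through 9 of its subunit genes, measured in mouse embryonic stem (ES) cells against mouse embryonic fibroblasts (MEF). The members were Cbx2, Cbx6, Cbx7 and Cbx8 (chromobox subunits), Bmi1 and Pcgf2 (Polycomb group RING finger subunits), Rnf2 and Ring1 (the catalytic RING subunits) and Phc1 (a polyhomeotic subunit). Every gene probe whose deposited gene name equalled one of these symbols, or an older synonym, was kept. That gave 9 of 27669 named genes and 18 of the 41174 gene probes on the array, with 0 found through an older synonym, and 17 of the 18 were bright enough to test.

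The stated question of the study was how gene expression in ES cells differs from that in MEF. ES cells are pluripotent cells of the early embryo; the 3 replicates were grown with defined serum plus leukemia inhibitory factor, which holds them undifferentiated, and MEF in a serum medium that lists no such factor. Both were untreated, and strain, cell line and passage are not given in the sources used here. Each of the 3 arrays carried total RNA of 1 ES cell replicate labelled with Cy3 and MEF RNA labelled with Cy5.

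PRC1 is one of the main Polycomb complexes, which keep developmental genes silent. Its RING1 or RNF2 subunit, paired with a PCGF protein, attaches ubiquitin to histone H2A. In canonical complexes a CBX protein reads, through its chromodomain, the methyl mark that the sister complex PRC2 places on histone H3, and a polyhomeotic protein links complexes into clusters. Variant complexes carry RYBP or YAF2 in place of the CBX subunit. CBX7 is known as the main chromobox subunit of mouse ES cells, with other CBX proteins taking its place on differentiation. In fibroblasts, BMI1 is best known for holding down Cdkn2a, the gene of senescence inhibitors.

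The array reads each subunit through 60-base oligonucleotides, and 5 of the probes measured below are shown, 1 for each of 5 subunits. Only the Pcgf2 probe among them is the brightest of its gene, so gene-level values of the other subunits shown come from probes given by position. All are 5′ to 3′ as deposited, with positions on mouse build mm7. Capitals mark the whole codons of the only reading frame without a stop, and a probe with more than 1 such frame is all in lower case.

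Bmi1, chr2:18748838-18748897, plus strand: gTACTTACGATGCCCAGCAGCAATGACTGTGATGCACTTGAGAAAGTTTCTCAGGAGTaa
Rnf2, chr1:151404443-151404502, minus strand: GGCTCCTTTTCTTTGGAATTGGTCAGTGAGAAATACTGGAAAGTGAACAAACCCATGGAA
Phc1, chr6:122348118-122348177, minus strand: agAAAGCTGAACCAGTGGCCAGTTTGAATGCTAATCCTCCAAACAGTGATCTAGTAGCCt
Ring1, chr17:32100231-32100290, minus strand: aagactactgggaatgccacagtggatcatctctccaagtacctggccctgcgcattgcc
Pcgf2, chr11:97800932-97801105, minus strand: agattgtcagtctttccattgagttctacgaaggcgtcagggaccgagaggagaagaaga

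The Pcgf2 probe covers 174 bases of the genome with 60 bases of sequence, so its bases are not contiguous there. The Cbx7 probe, chr15:79999970-80000029 on the minus strand, has a stop in every frame and is given by position only, as are the remaining probes. No gene annotation of build mm7 was used, so whether a probe lies in coding or untranslated sequence was not determined. GC content of the 18 probes ran from 18.3% (the brighter Cbx8 probe) to 55.0% (the Ring1 probe shown).

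All ratios are ES cells over MEF on the log2 scale, so negative values mean less signal in ES cells, and errors are SDs over the 3 arrays. A probe was called when its Benjamini-Hochberg adjusted p from limma was under 0.05 and the difference at least 2-fold. The brightest probe stood for its gene. Over all 19495 tested genes, 20.4% were called higher and 22.5% lower. Without the fold minimum 95.4% of genes passed, so the fold minimum sets the calls. How many of all genes have ES cell and MEF signals that do not overlap on the 3 arrays was not counted. Such separation is therefore given below as a description and not as a result about a gene.

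The catalogue of PRC1 subunits differed between the cell types in both directions. Cbx7 and Phc1 were called higher in ES cells. Cbx6, Bmi1 and Cbx8 were called lower, and Rnf2, Cbx2, Pcgf2 and Ring1 lay within 2-fold of MEF by their brightest probes. The 2 higher and 3 lower of 9 are near the background shares above, so the counts by themselves are not a result about these genes. The median of the 9 log2 ratios was 0.17, against -0.05 over all tested genes. Among probes, 4 of the 17 were called higher and 8 lower, against 19.9% and 21.1% of all 29500 tested probes. Probes of 1 gene are not independent: Phc1 alone gave 3 of the higher calls and Cbx6 alone 3 of the lower. The probe counts are therefore not a result about these genes either. All tested probes of a gene had the same sign on every array, each was well above background for both RNAs on 3 of 3 arrays, and none was saturated.

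**Figure D1:**
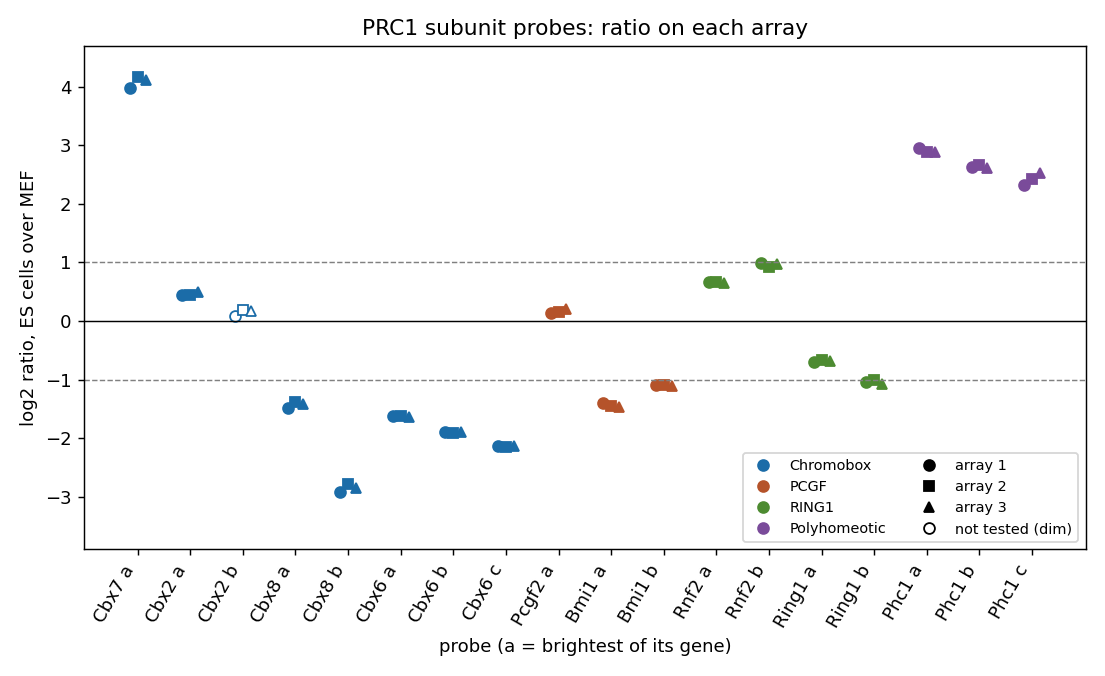
Log2 ratio of ES cells over MEF (y axis) on each of the 3 arrays for the 18 probes of the 9 PRC1 subunits (x axis; a is the brightest probe of its gene, colour is the subunit family, marker shape is the array, open markers are the untested probe, dashed lines mark the 2-fold limits). Cbx7 lies near 4 and the 3 Phc1 probes between 2.32 and 2.95, while all probes of Cbx6, Cbx8 and Bmi1 lie below -1.

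Several properties of the arrays bear on every value below. Correlations of log2 ratios between arrays were 0.998 across genes, which are not independent replicates, and the median SD of a gene was 0.028. Whether the replicates are separate cultures is not in the labels, and p-values therefore reflect array-to-array spread that may be technical. MEF counts as 1 control whose own spread is left out, and dyes were not swapped, so a dye bias of a probe and a difference between cells cannot be told apart. Markers of the labelled cell types were checked, with 9 of 9 tested ES cell markers called higher (Zfp42 6.33 ± 0.052, Sox2 5.79 ± 0.062) and 10 of 10 fibroblast markers lower (Col1a1 -8.10 ± 0.015, Col3a1 -7.59 ± 0.0078). All of these were also well above background in the channel of the other cell type on 3 of 3 arrays. Summed normalized signals of the ES cell markers were 929000 to 948000 in ES cells and 49100 to 52500 in MEF. Those of the fibroblast markers were 73700 to 76900 in ES cells and 2110000 to 2140000 in MEF. The source of the signal in the other channel was not tested. Markers of macrophages moved with the fibroblast markers. All 10 were called lower in ES cells, Lyz2 at -6.18 ± 0.011 and Csf1r at -5.69 ± 0.075, with a summed normalized signal of 544000 to 576000 in MEF against 13700 to 14100 in ES cells, and none was below background in either channel. Their part in the lower ratios of PRC1 members was not tested. Of 6 tested endothelial markers 3 were called higher (among them Pecam1 at 2.59 and Tek at 2.11) and 2 lower (Emcn at -2.58 and Kdr at -1.40), with summed signals of 9720 to 9840 in ES cells and 5460 to 5550 in MEF. In such bulk RNA, fewer cells of a type and less RNA per cell cannot be told apart.

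Among the chromobox subunits Cbx7 alone was called higher. Its probe gave spot signals of 24400, 25800 and 25400 in the ES cell replicates and of 1350, 1250 and 1290 in MEF on the same arrays. Every ES cell signal was far above every MEF signal. The log2 ratios were 3.98, 4.17 and 4.12, a mean of 4.09 ± 0.10 (n = 3) and a 17-fold difference (limma adjusted p = 5.39e-07). Of the 19495 tested genes, 131 (0.672%) had a higher ratio. With a single probe on the array, no other sequence of Cbx7 checks this value.

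Cbx6, which encodes another chromodomain subunit of PRC1, was called in the opposite direction. The brightest of its 3 probes, chr15:79910278-79910337, read 13500, 13100 and 12800 in ES cells and 36700, 35400 and 35800 in MEF. Replicates were nearly identical and the cell types did not overlap. The log2 ratio was -1.64 ± 0.0048, a 3.11-fold lower level in ES cells (limma adjusted p = 2.83e-07). The other Cbx6 probes gave -1.90 ± 0.0073 (chr15:79908323-79908382) and -2.14 ± 0.0070 (chr15:79910961-79911020), so all 3 were called lower.

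Cbx8, another reader of the PRC2 mark, was also lower in ES cells, by an amount that depended on the probe. At chr11:119147508-119147567 the signals were 308, 326 and 299 in ES cells and 764, 773 and 749 in MEF, a log2 ratio of -1.43 ± 0.055 or 2.69-fold (limma adjusted p = 2.20e-06). At chr11:119145384-119145443 they were 162, 171 and 164 in ES cells and 1120, 1070 and 1120 in MEF, a log2 ratio of -2.86 ± 0.067 or 7.25-fold (limma adjusted p = 5.38e-07). ES cells were lower than MEF on every array with both probes. The 2 probes differed from each other by 1.43 ± 0.018 within the arrays, more than their spread. The scanner software's processed signals moved the second value to -3.66.

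Cbx2, whose product can also compact chromatin, differed little. Its brighter probe, chr11:119140094-119140153, read 5390, 5280 and 5470 in ES cells and 3490, 3420 and 3470 in MEF. Cell types did not overlap, but the ratio of 0.46 ± 0.036 (1.38-fold, limma adjusted p = 3.20e-05) was below the fold minimum. A second probe, chr11:119138059-119138118, was well above background on 1 of 3 arrays in ES cells and on 0 of 3 in MEF, so it was not tested. Its signals were 98.2, 102 and 113 in ES cells and 83.1, 83.6 and 92.2 in MEF.

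**Figure D2:**
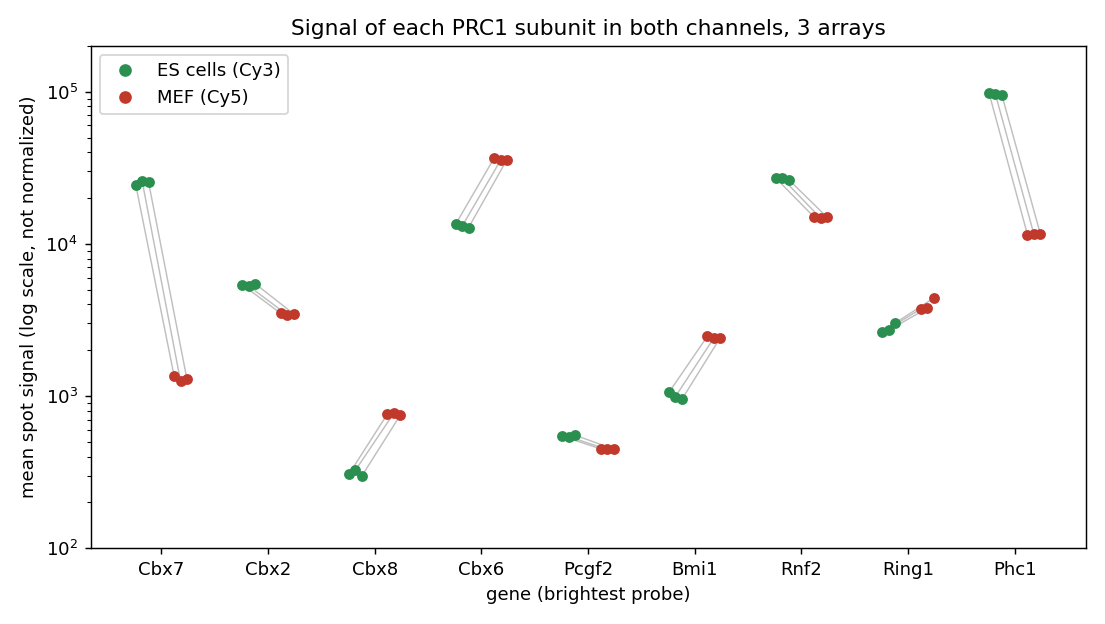
Mean spot signal before normalization (log y axis) of the brightest probe of each of the 9 genes (x axis) in ES cells (green, Cy3) and MEF (red, Cy5), with a line joining the 2 channels of each of the 3 arrays. Within every gene the 3 ES cell signals lie apart from the 3 MEF signals, ES cells being above for Cbx7, Cbx2, Pcgf2, Rnf2 and Phc1 and below for the others. How many of all tested genes do so was not counted, and 95.4% of them pass the limma adjusted p without a fold minimum. Heights of different probes are not comparable.

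The PCGF subunits, which pair with the catalytic RING protein, were measured with 3 probes. Bmi1 (PCGF4 in the family's numbering) was called lower with both of its probes. The brighter, chr2:18751519-18751578, read 1060, 993 and 952 in ES cells and 2480, 2410 and 2420 in MEF, a log2 ratio of -1.44 ± 0.036 or 2.72-fold (limma adjusted p = 9.16e-07). The Bmi1 probe shown above read 579, 586 and 564 in ES cells and 1120, 1130 and 1130 in MEF, a ratio of -1.10 ± 0.0097 or 2.14-fold (limma adjusted p = 6.64e-07). No ES cell signal reached the MEF signals with either probe. Median centring of the arrays in place of loess took the second probe below the fold minimum, at -0.89.

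Pcgf2 (Mel-18), the closest paralog of Bmi1, differed little. Its probe read 544, 541 and 553 in ES cells against 450, 446 and 448 in MEF, groups that did not overlap. The log2 ratio of 0.17 ± 0.036, 1.12-fold, was not called (limma adjusted p = 0.00120). It lay among the middle of all genes, 42.4% of which had a higher ratio.

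The catalytic subunits had ratios of opposite sign, both within 2-fold by the brightest probe. Rnf2 (RING1B), the main H2A ubiquitin ligase of mouse ES cells, read 27100, 27000 and 26500 in ES cells and 15000, 14800 and 15000 in MEF with its brighter probe, chr1:151402951-151403010. Its ES cell signals were above all MEF signals, and the ratio was 0.66 ± 0.0086 (1.58-fold, limma adjusted p = 2.52e-06), below the fold minimum. The Rnf2 probe shown above read 6750, 6490 and 6890 against 2990, 2980 and 3140, a ratio of 0.97 ± 0.030 (1.95-fold, limma adjusted p = 2.09e-06), just short of it. This probe passed the fold minimum with the scanner software's processed signals (1.08), the authors' value table (1.08), normexp without an offset (1.00) and median centring (1.23).

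Ring1, the paralogous ligase gene, stood below MEF. The brighter probe, chr17:32099560-32099619, read 2620, 2710 and 3020 in ES cells and 3740, 3780 and 4400 in MEF, a ratio of -0.68 ± 0.017 (1.60-fold, limma adjusted p = 3.21e-06) and not called. The Ring1 probe shown above read 1040, 1050 and 934 against 1910, 1880 and 1820, a ratio of -1.04 ± 0.041 (2.06-fold, limma adjusted p = 2.93e-06), and was called lower. With either probe the ES cell signals were all below the MEF signals. The call of the second probe ended with processed signals (-0.97), the authors' value table (-0.97) and median centring (-0.81), so the call rests on the choice of signal and normalization.

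Phc1, the polyhomeotic subunit that joins PRC1 particles through its sterile alpha motif, was called higher with all 3 of its probes. The brightest, chr6:122344374-122344433, read 97800, 96000 and 94900 in ES cells and 11500, 11600 and 11700 in MEF. The log2 ratio was 2.91 ± 0.032, a 7.52-fold difference (limma adjusted p = 2.19e-07), and 481 tested genes (2.47%) had a higher one. The other probes gave 2.64 ± 0.033 (chr6:122344119-122344178, 6.21-fold) and 2.43 ± 0.10 for the probe shown above (5.38-fold, with 2.32, 2.43 and 2.53 on the arrays). The ES cell signals lay clear of the MEF signals for every probe.

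Ordered by the ratio of the brightest probe, the members ran Cbx7, Phc1, Rnf2, Cbx2, Pcgf2, Ring1, Cbx8, Bmi1 and Cbx6. Neighbours in this order did not overlap on the arrays, except Cbx8 (-1.49 to -1.38) and Bmi1 (-1.47 to -1.40), which did not differ beyond their spread. Other probes would change the order, since the second Cbx8 probe lay below every Cbx6 probe. Differences between paralogs were measured within each array, on the brightest probes, for 5 pairs. The ratio of Cbx7 exceeded that of Cbx2 by 3.63 ± 0.099, that of Cbx6 by 5.73 ± 0.10 and that of Cbx8 by 5.52 ± 0.046 on the log2 scale. With the mean of both Cbx8 probes the last difference was 6.23. Pcgf2 exceeded Bmi1 by 1.61 ± 0.068 and Rnf2 exceeded Ring1 by 1.35 ± 0.017. Each difference had the same sign on 3 of 3 arrays and was far above its SD. The exact sign-flip test, two-sided, gave p = 0.25 for each pair (0.25 after Benjamini-Hochberg over the 5), the smallest value that 3 arrays allow.

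Other genes of the same machinery put these paralogs in context. Of 20 measured further PRC1 subunit genes, 5 were called higher and 3 lower, with a median of 0.20. These counts are near the 20.4% of all tested genes called higher and the 22.5% called lower, and are not a result about the list. Scml2, which encodes a sex-comb-on-midleg-like protein, was highest at 3.60 ± 0.031 (12.1-fold), followed by the PRC1-associated ubiquitin protease gene Usp7 at 1.65 ± 0.016. Among those called lower, the polyhomeotic gene Phc2 stood at -2.62 ± 0.019 (6.16-fold lower). Thus of the 4 chromobox members, Cbx7 was called higher, Cbx6 and Cbx8 lower and Cbx2 in neither direction.

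The polyhomeotic paralogs parted in the same way, with Phc1 called higher and Phc2 lower. The brightest Phc3 probe was not well above background in ES cells on any array. It was at least 1.53-fold lower there (limma adjusted p = 1.18e-05) and not called. In the PCGF family Pcgf6, a variant-complex subunit, was called higher at 1.63 ± 0.033 and Bmi1 lower, while Pcgf1, Pcgf2, Pcgf3 and Pcgf5 lay between -0.13 and 0.78. The subunits that stand in for CBX proteins also split, with Rybp called higher at 1.21 ± 0.048 and Yaf2 lower at -1.70 ± 0.015.

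**Figure D3:**
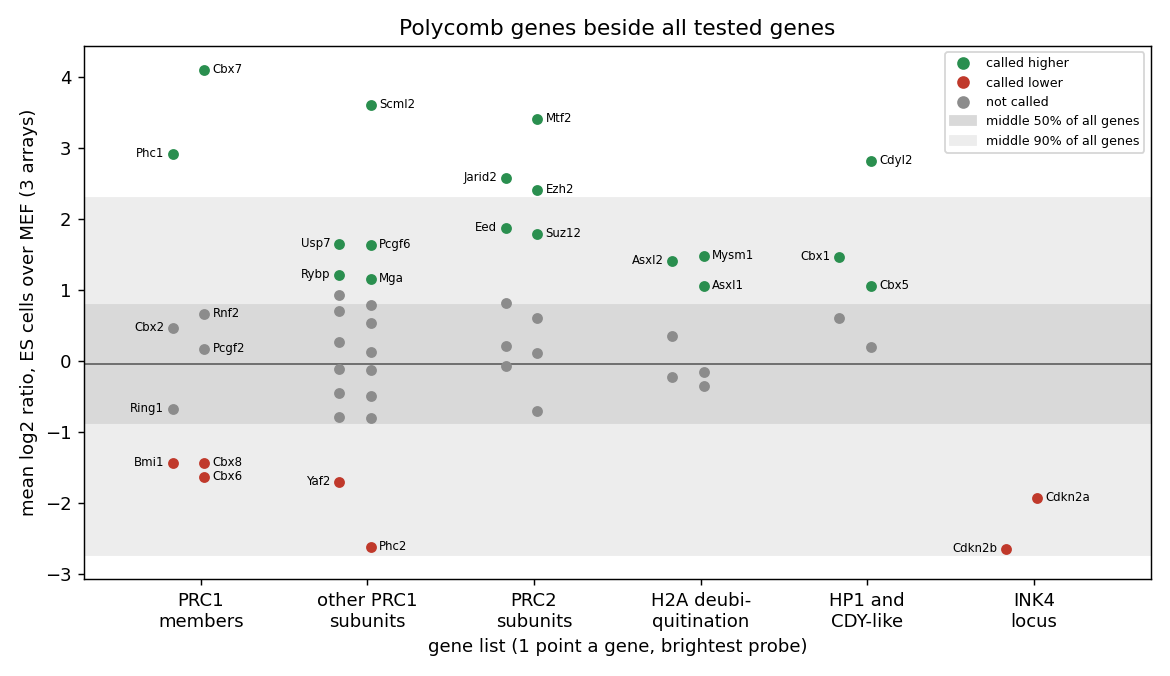
Mean log2 ratio of ES cells over MEF on 3 arrays (y axis), 1 point for each gene by its brightest probe (1 gene is not drawn), for the 9 PRC1 members and 5 lists of related genes (x axis; green called higher, red called lower, grey not called). Grey bands hold the middle 50% (-0.87 to 0.79) and the middle 90% (-2.73 to 2.29) of all tested genes and the line is their median; Cbx7 and Phc1 lie above the wider band and no member lies below it.

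The counts of the next lists stand against 20.4% of all tested genes called higher and 22.5% lower, and no list was tested as a set. With no fold minimum 8947 of all 19495 tested genes were higher and 9648 lower. Of 11 PRC2 subunit genes, 5 were called higher and 0 lower by limma, with a median of 0.82. With no fold minimum the adjusted p called 9 higher and 2 lower. Mtf2 (3.41 ± 0.016) and Jarid2 (2.58 ± 0.042), both accessory subunits, were highest, and the core subunits Eed (1.87 ± 0.0035) and Suz12 (1.78 ± 0.014) were lowest among those called. Of 7 genes that remove ubiquitin from H2A, or encode partners of such enzymes, 3 were called higher and 0 lower, with a median of 0.35. These were the deubiquitinase gene Mysm1 (1.48 ± 0.024) and the BAP1 partner genes Asxl2 (1.40 ± 0.019) and Asxl1 (1.06 ± 0.014), and averaging all probes of a gene left 1 of the 3 calls. Without the fold minimum 3 of the 7 were lower. Chromodomain genes outside PRC1, the HP1 and CDY-like group, had 3 of 5 called higher and 0 lower (median 1.05). Without the fold minimum all 5 were higher and still 0 lower, and averaging all probes of a gene left 2 called higher. Cdyl2 stood at 2.81 ± 0.0086, Cbx1 (HP1 beta) at 1.46 ± 0.028 and Cbx5 (HP1 alpha) at 1.05 ± 0.014.

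The INK4 locus is the classic target of PRC1 in fibroblasts. Both of its genes were called lower in ES cells, Cdkn2a at -1.93 ± 0.0069 (3.81-fold) and Cdkn2b at -2.65 ± 0.025 (6.26-fold). Bmi1 was called lower as well, and a link between its level and theirs was not tested. Among the 53 genes searched over all these lists, those with ratios nearest to Cbx7 over the 3 arrays were Scml2 (Euclidean distance 0.85 in log2 units) and Mtf2 (1.19). Those nearest to Cbx6 were Yaf2 (0.113) and Bmi1 (0.338).

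Promoter sequences were available from RefSeq (build GRCm38.p6) for 8 of the 9 members, all but Cbx2, as 250 bases before to 50 after the start of the gene. The 150 bases just upstream are shown for the pair called highest and for Cbx6 and Cbx8, called lower, to set their base composition side by side. Capitals mark CG dinucleotides, and each sequence is read 5′ to 3′ on the strand of its gene, the minus strand for all 4.

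Cbx7, chr15:79932647-79932796: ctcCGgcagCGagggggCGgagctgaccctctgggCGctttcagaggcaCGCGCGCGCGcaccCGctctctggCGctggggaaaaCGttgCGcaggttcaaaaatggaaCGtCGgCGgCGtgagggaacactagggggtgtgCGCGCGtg
Phc1, chr6:122340228-122340377: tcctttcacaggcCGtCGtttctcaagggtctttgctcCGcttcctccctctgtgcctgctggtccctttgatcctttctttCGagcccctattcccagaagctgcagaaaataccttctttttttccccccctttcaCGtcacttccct
Cbx6, chr15:79834334-79834483: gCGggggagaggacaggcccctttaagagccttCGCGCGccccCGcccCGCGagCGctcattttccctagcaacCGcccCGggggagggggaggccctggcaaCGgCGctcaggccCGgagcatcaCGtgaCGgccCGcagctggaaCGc
Cbx8, chr11:119040914-119041063: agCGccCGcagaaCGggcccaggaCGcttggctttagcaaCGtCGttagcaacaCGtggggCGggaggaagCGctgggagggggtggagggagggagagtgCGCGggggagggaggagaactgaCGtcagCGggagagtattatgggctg

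The Phc1 stretch holds 5 CG dinucleotides, against 20 for Cbx7, 17 for Cbx6 and 13 for Cbx8. Over the full 300 bases the count was 37 for Ring1, 33 for Cbx7, 31 for Cbx6, 30 for Rnf2, 24 for Cbx8, 23 for Bmi1, 10 for Pcgf2 and 9 for Phc1, against a median of 7 over 32851 promoters of the same length. Cbx7 and Phc1, both called higher, thus had 33 and 9, and Cbx6, Cbx8 and Bmi1, called lower, had 31, 24 and 23. A link between CG content and the direction of the ratio was not tested. The letters CACGTG, the E-box read by Myc, Max and related factors, occurred in the windows of Cbx6, Cbx8, Bmi1 and Pcgf2 and not in those of Cbx7, Rnf2, Ring1 and Phc1. This motif reads the same on both strands and contains a CG, and 7.15% of all promoters hold it. The octamer ATGCAAAT, searched on both strands, was in 0 of the 8 windows and in 1.74% of all promoters. Such matches describe letters in a window and not bound sites.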

How the data were processed

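RNA of 3 ES cell replicates (Cy3) was set against MEF RNA (Cy5) on 3 dual-colour Agilent arrays. Per the file headers they shared 1 slide and 1 scan, so no batch could be tested. Images were read with Agilent Feature Extraction 9.5.3.1, per the file headers, which also give probe positions on build mm7. The deposited intensities are mean spot and median background brightness, without subtraction; its processed intensities, by the same headers, had background removed and dyes normalized. A log10 ratio, Cy5 over Cy3, was deposited too. The log2 value table that the authors deposited came within 0.01 of the sign-turned ratio for 85.4% to 87.8% of probes, so its direction is ES cells over MEF; its columns have medians of 0.213, 0.086 and -0.143, and how the remaining probes were treated stays unknown.

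Signals were corrected with limma 3.58.1 (R 4.3.3; normexp, offset 50, which shrinks ratios of dim probes) and loess within each array, control spots having weight 0. Outlier spots (117 to 144 an array) were dropped, and replicate spots averaged. Median signals were 397.9 to 421 in ES cells and 381.2 to 390.6 in MEF, over backgrounds of 45 to 56 and 38 to 41.5, and the number of arrays limits the precision. A probe was tested if well above background in ES cells or in MEF on all 3 arrays (29500 of 41174), with lmFit and eBayes against 0 and Benjamini-Hochberg adjustment over all tested probes. List genes were named through accession or symbol in the RefSeq gene table. The procedure was tested on simulated data. The alternatives, given in the closing section, were processed signals, no background subtraction, offset 0, median centring, other filters on dim probes, flagged spots kept, the authors' table, limma's treat, no fold minimum, other probe choices and leaving out each replicate.

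Members and lists were chosen with earlier results of these data known. The text names all members and, among the genes reported here, the 2 highest and 2 lowest called genes of each list. Both INK4 genes and the 2 genes nearest to the members with the highest and lowest ratios are named too. For each cell type the 2 markers with the largest ratios in its direction are given (for endothelium, both directions). Genes that complete the PCGF, polyhomeotic and RYBP families, and gene neighbours, were named after their values were seen. List counts and medians include genes that are not reported here by name. Fbrs and Fgf4 were not matched to a probe, and Cdh5 and Tie1 were too dim to test. The design text once gives the Cy5 RNA a name other than MEF; it is MEF here, as in the labels.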

Additional observations from a re-analysis of the deposited data

How the results depend on the processing

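No member probe changed direction under any alternative run. Of 187 member probe values, 179 kept their side of the threshold. The 4 that lost a call and the 4 that gained one belong to the second probes of Ring1, Bmi1 and Rnf2 and stand beside them in the report. Not all of these values are separate checks. The other filters on dim probes reuse the main ratios, so only the adjusted p could change there. The authors' table gave the same member ratios as the processed signals. Averaging all probes of a gene took the higher calls among the H2A deubiquitination genes from 3 to 1. It took those of the HP1 and CDY-like genes from 3 to 2 and those of the further PRC1 subunit genes from 5 to 6. The other counts that moved by over 1.5 times did so when the fold minimum was dropped, which by construction calls small differences: 5 member genes and 8 member probes were then higher, 8947 of all genes higher and 9648 lower, and 29 genes of the other Polycomb lists higher and 16 lower, against 16 and 5 with the minimum. Leaving out each replicate in turn gave 2 member genes higher and 3 lower each time, 4 probes higher and 8 lower, 3941 to 4005 of all genes higher and 4335 to 4395 lower. The median of all tested genes was -0.05, and 0.11 with median centring. That setting centres each array on the median of all its gene spots, tested or not, and its ratios are relative to that median. By the brightest probe, Cbx7 ran from 4.05 to 4.36, Phc1 from 2.89 to 3.15 and Cbx6 from -1.64 to -1.36 over the alternatives that kept probes apart. Other Phc1 probes went as low as 2.38 and other Cbx6 probes as low as -2.15. The mean of all probes was 2.66 for Phc1 and -1.89 for Cbx6. Low signal left the second Cbx2 probe untested, and the second Cbx8 probe, dim in ES cells, ran from -3.66 to -2.69. The ratios tested were taken within arrays, each holding both RNAs, so the pairing of ES cells with MEF was kept. With only 1 group of arrays no further pairing was possible.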

Other observations

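The neighbours of the members in the gene order of RefSeq were looked up after the members' values were known. Cbx2 and Cbx8 are adjacent on chromosome 11, with 0 genes between them in the table, and had log2 ratios of 0.46 ± 0.036 and -1.43 ± 0.055 (SD, n = 3 arrays). Cbx6 and Cbx7, called in opposite directions, are separated on chromosome 15 by the antiviral deaminase gene Apobec3 (-0.18 ± 0.026, not called). Bmi1 follows Commd3, which was called lower as Bmi1 was (-1.53 ± 0.023). Ring1 lies next to the class I histocompatibility gene H2-K1, called lower at -1.74 ± 0.0010, and on its other side to H2-Ke6, not called at 0.0056 ± 0.038. Rnf2, not called, lies between Trmt1l (-0.28 ± 0.022, not called) and Niban1 (-2.68 ± 0.024, called lower). Pcgf2 and both of its neighbours, Cisd3 (0.19 ± 0.021) and Psmb3 (0.089 ± 0.0088), were not called, nor was Pdgfb (0.76 ± 0.077), on the other side of Cbx7.

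Phc1 lies on chromosome 6 next to M6pr (-0.20 ± 0.020, not called) on one side and, on the other, with 6 genes between it and Nanog (4.02 ± 0.028), the pluripotency factor gene. Of these 6, Rimklb (3.41 ± 0.067), the TGF-beta family gene Gdf3 (3.11 ± 0.0078) and the germ cell gene Dppa3 (2.98 ± 0.024) were called higher, at ratios near that of Phc1. Mfap5, which encodes a microfibril protein, was called lower at -2.24 ± 0.012. Apobec1 (-0.076 ± 0.016), a cytidine deaminase gene, was not called.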
